A study of Rattus norvegicus with 24 samples.

Results

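Adipocyte genes are described here across 4 rat tissues, as 10 genes taken by name: the fat cell regulator Pparg, the fatty acid uptake and handling genes Cd36, Lpl and Fabp4, the lipid droplet and lipolysis genes Plin1, Cidec and Lipe, and the secreted products Adipoq, Cfd and Lep. A gene was followed through the array features whose accession maps to its symbol, and 9 of the 10 genes had such a feature, out of 8945 symbols on the array. Plin1 matched none and was not analysed here. The 9 genes had 11 features among 41012 that are not controls, with a pair each for Lpl and Lipe. All animals were Sprague-Dawley rats of 12 weeks. The tissues were ovary of intact females and, from castrated males, prostate, skin and forebrain, and the animals were given dihydrotestosterone (DHT, the potent reduced form of testosterone) or vehicle, with 3 arrays for each tissue and treatment. DHT was a single intraperitoneal injection of 10 mg/kg, tissue was taken 16 h later, and the males had been castrated before the injection in both treatment groups, per the labels' protocols. The series' short design note describes castrated animals only, whereas the sample labels list intact females for ovary, and those labels were followed.

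White adipocytes store triglyceride in a single large droplet. PPARγ, the nuclear receptor that Pparg encodes, pairs with RXR on DNA and keeps the fat cell program on, together with C/EBP factors. Lipoprotein lipase releases fatty acids from circulating triglyceride, CD36 takes them up and FABP4 carries them inside the cell, while perilipin and CIDEC coat and enlarge the droplet and hormone-sensitive lipase breaks its lipid down. Adiponectin, adipsin (complement factor D) and leptin are hormones or secreted proteins of fat. In rodents the prostate, the ovary and the skin each lie next to fat depots, and the skin holds a layer of dermal fat, whereas brain tissue has no white fat cells. The androgen receptor is present in prostate epithelium and stroma and also in fat cells and their progenitors.

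Every level below is the log2 of the background-subtracted spot signal minus the 75th percentile of its array, so that 1 unit is a 2-fold difference, and levels are compared for the same gene between samples and never between genes. The 23 arrays used had 54.6% to 97.0% of their features well above background. Forebrain vehicle array 3 failed the submitters' quality control and was left out. Ovary vehicle arrays 1 and 3 had a compressed range of signal (interquartile ranges of 3.78 and 3.20 log2 units, against 6.16 on ovary vehicle array 2), and prostate vehicle array 3 had 1531 outlier spots and a narrower interquartile range (4.99) than its fellow prostate vehicle arrays (6.71 and 6.82). The members' calls in prostate are also given without prostate vehicle array 3, and their DHT differences in ovary without ovary vehicle arrays 1 and 3. The arrays lay on 6 slides with 1 array of each tissue, 3 slides with DHT arrays and 3 with vehicle arrays, so DHT and slide cannot be told apart. The design text calls the arrays of a group biological replicates. The labels do not say in words that each array came from its own animal, so p-values stand for the spread among these arrays, which may in part be technical.

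In prostate, 6 of the 8 adipocyte genes tested rose with DHT and none fell. Pparg, Cd36, Fabp4, Cidec, Adipoq and Cfd were 2.23 to 3.02 times as high on DHT arrays. Over all 23738 genes tested there, 5.03% rose and 4.61% fell, and 27.6% had an unadjusted p under 0.05 in limma. Lpl and Lipe were higher too, but missed the threshold of an adjusted p of 0.05. Leptin (Lep) was not well above background on any prostate array and was not tested. For all 8 genes the lowest DHT array exceeded the highest vehicle array, which was so for 19.3% of all genes tested. The median log2 fold change was 1.23 over the 8 genes, against 0.06 over all genes, and the 8 values lay between 0.93 and 1.60. The genes were chosen with earlier results of these data known, so these contrasts with all genes describe the list and do not test it.

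Pparg had levels of -0.59, -0.75 and -1.41 on the 3 DHT prostate arrays, against -2.16, -2.10 and -1.96 on the 3 vehicle arrays. The groups did not overlap, and the lowest DHT value was 0.56 log2 units above the highest vehicle value. The difference was 1.16 ± 0.24 log2 units (SE, 2.23-fold, limma adjusted p = 0.0339). Of the uptake genes, Cd36 had 2.02, 1.64 and 1.72 on DHT arrays, against 0.62, 0.75 and 0.50 on vehicle arrays. No array came between the groups, and its difference of 1.18 ± 0.17 had the smallest SE of the 8 genes (2.26-fold, adjusted p = 0.0124). Fabp4, the fatty acid carrier, had 3.52, 3.45 and 3.11 on DHT arrays, against 2.02, 1.90 and 2.25 on vehicle arrays. That is a difference of 1.30 ± 0.18 (2.47-fold, adjusted p = 0.0111), well clear of the spread within either group. Lpl, whose product also acts in muscle and on capillary walls, had 0.85, 1.09 and 0.10 on DHT arrays, against -0.60, -0.11 and -0.35 on vehicle arrays. DHT array 3 lay only 0.21 above the highest vehicle array, and the difference of 1.04 ± 0.29 did not pass (2.05-fold, 95% interval 0.34 to 1.73, adjusted p = 0.0760). The other Lpl feature, which was not tested, averaged 0.46 on DHT arrays and -0.82 on vehicle arrays, a difference of 1.27 with no overlap.

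Cidec, the droplet enlarging protein, had the largest difference of the 8 genes. Its levels were 1.54, 1.23 and 1.11 on DHT prostate arrays, against -0.46, -0.58 and 0.14 on vehicle arrays. The lowest DHT array was 0.97 log2 units above the highest vehicle array, and the difference was 1.60 ± 0.24 (3.02-fold, adjusted p = 0.0143). Lipe, which encodes hormone-sensitive lipase, had -1.06, -1.04 and -1.67 on DHT arrays, against -2.23, -2.64 and -1.71 on vehicle arrays. The groups almost touched, since DHT array 3 and vehicle array 3 differed by 0.035, and the difference of 0.93 ± 0.30 did not pass (1.91-fold, 95% interval 0.22 to 1.65, adjusted p = 0.101). The other Lipe feature was well above background on 1 of 3 arrays in each group and was not tested.

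Adipoq, the gene of the hormone adiponectin that is made almost wholly by fat cells, had 3.91, 4.01 and 3.40 on DHT prostate arrays, against 2.17, 2.28 and 2.58 on vehicle arrays. The difference was 1.43 ± 0.22 (2.70-fold, adjusted p = 0.0150). Cfd, the gene of adipsin, had 7.48, 6.82 and 6.61 on DHT arrays, against 5.76, 5.57 and 5.75 on vehicle arrays. The vehicle arrays were close together and the DHT arrays spread more widely above them, for a difference of 1.27 ± 0.25 (2.42-fold, adjusted p = 0.0288). Lep averaged -7.35 ± 0.71 on DHT arrays and -6.97 ± 0.91 on vehicle arrays (SD, n = 3 each), with 0 of 3 arrays well above background in either group, so these data hold no measured level of leptin in prostate.

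**Figure D1:**
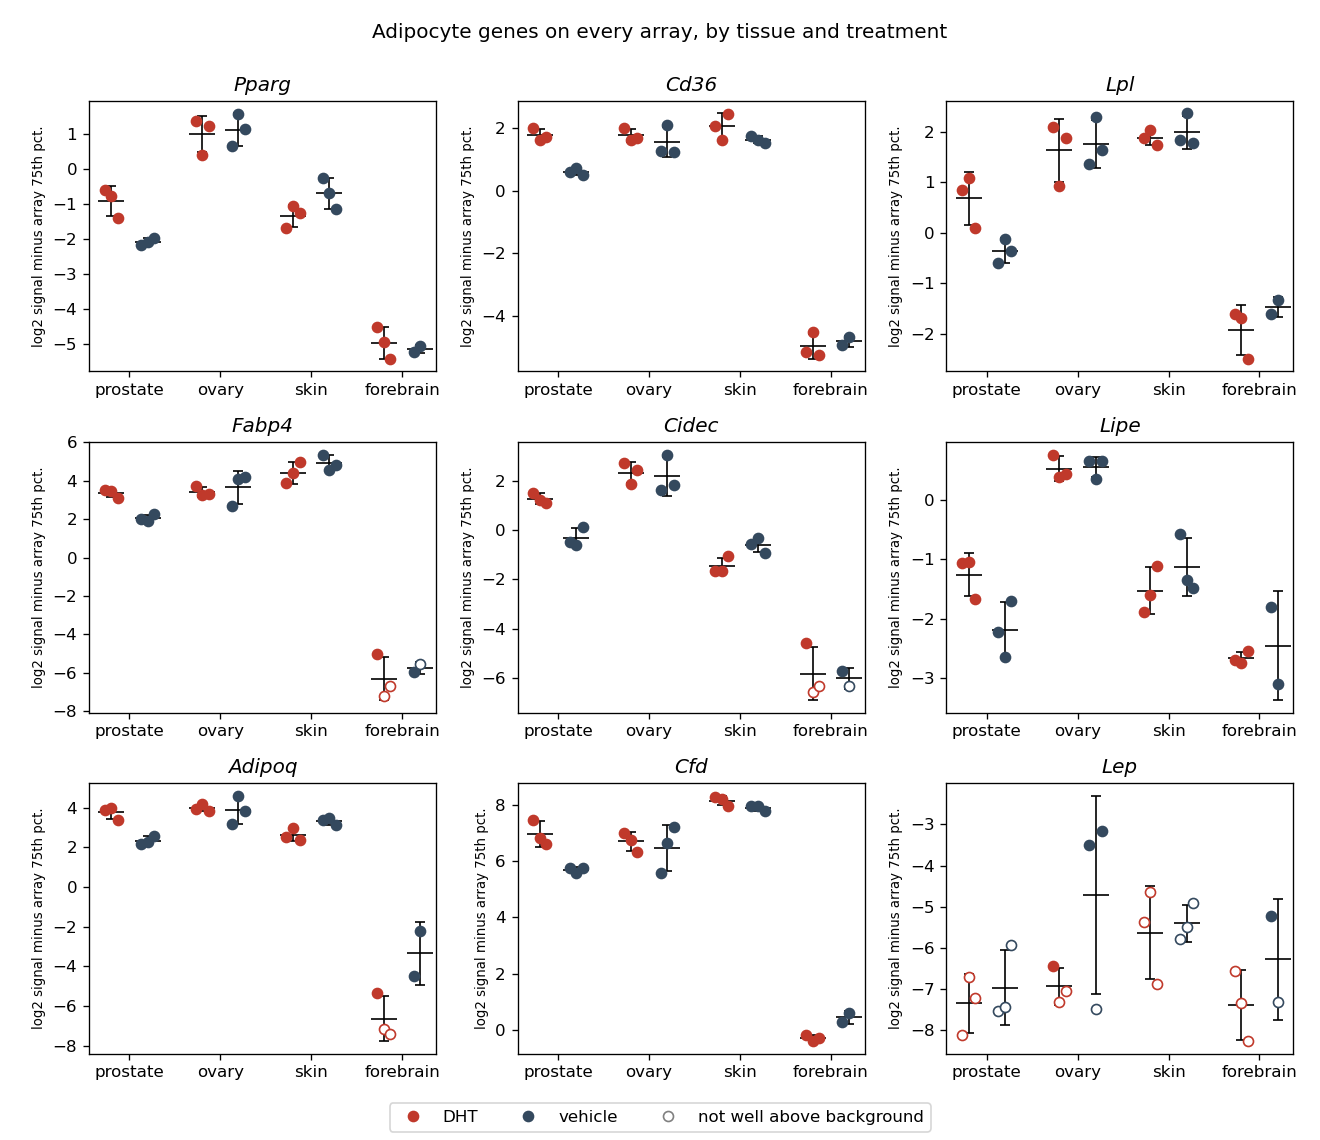
Levels of the 9 adipocyte genes on each of the 23 arrays (log2 signal minus the array's 75th percentile), by tissue, with DHT arrays in red and to the left of vehicle arrays in dark blue. Open points were not well above background, and bars give the mean and SD. In prostate the red points lie above the blue points for every gene but Lep, and in ovary they overlap for all 9 genes.

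The differences in prostate moved with single arrays in the same way for most of these genes. DHT array 3 was the lowest of the DHT arrays for 7 of the 8 genes, all but Cd36, and vehicle array 3 was the highest vehicle array for 5 of the 8. Averaged over the 8 genes, the level was 2.21, 2.06 and 1.62 on DHT arrays, against 0.64, 0.63 and 0.90 on vehicle arrays. The direction held in every fit, with log2 fold changes of 0.51 to 1.82 over the 13 alternatives for each of the 8 genes. The number that passed did not: leaving out 1 array gave 1 to 7 genes. It was 1 without vehicle array 1 (Fabp4), without vehicle array 2 (Cd36) or without DHT array 2 (Cd36), 5 without DHT array 1, and 7 without vehicle array 3, where Lipe passed (adjusted p = 0.0445), or without DHT array 3, where Lpl passed (adjusted p = 0.0413). In a fit over all 23 arrays with slide as a random block, where all tissues share 1 estimate of the spread, 2 of the 8 genes passed, Cd36 (adjusted p = 0.0188) and Cfd (adjusted p = 0.0299), and Adipoq and Fabp4 had an adjusted p = 0.170 and an adjusted p = 0.179, limma in each case.

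**Figure D2:**
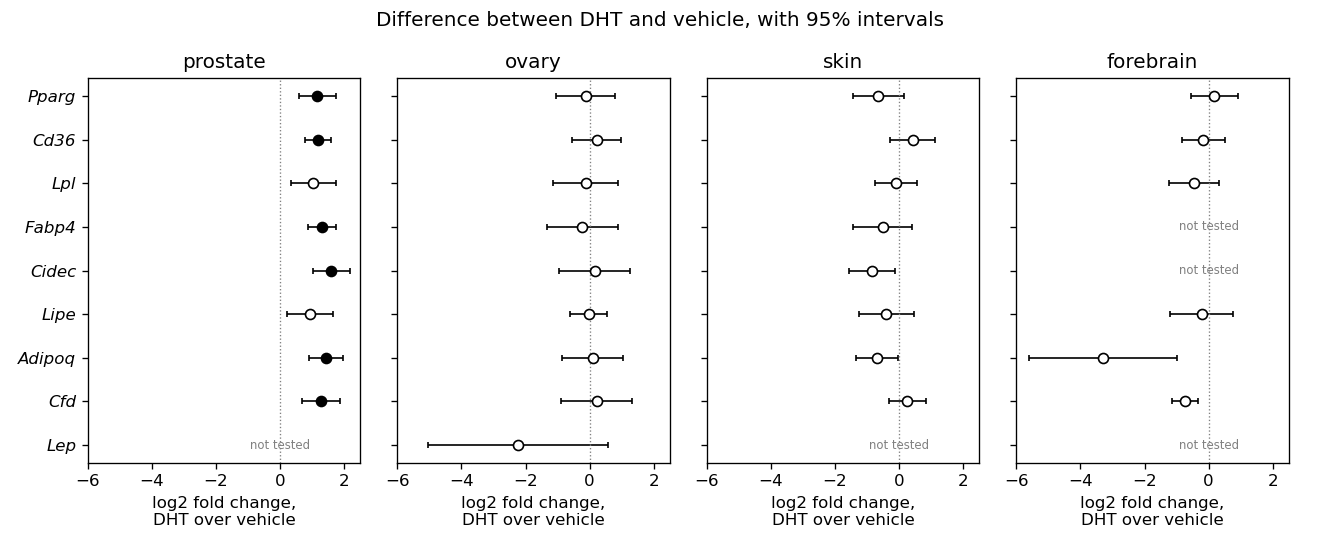
Log2 fold change of DHT over vehicle for each adipocyte gene in prostate, ovary, skin and forebrain, with 95% intervals from limma; filled points passed an adjusted p of 0.05 over all genes tested in that tissue. Filled points occur in prostate alone, where they lie between 1.16 and 1.60, and the genes marked as not tested were too dim in that tissue.

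Other fat cell genes in prostate, from lists that hold none of these members, gave a mixed picture. Of 7 adipocyte regulators tested, Klf15, a factor that promotes fat cell formation, rose by 1.03 log2 units (adjusted p = 0.0267) and Cebpd, an early factor of fat cell formation that glucocorticoids also induce, fell by 1.37 (adjusted p = 0.00886), with a list median of -0.37. Cebpa, the C/EBP factor of mature fat cells, had a log2 fold change of -0.57 and did not pass (adjusted p = 0.161). Of 6 genes of the droplet and of lipolysis none passed in limma and 2 had an unadjusted p under 0.05, against 27.6% of all genes tested. All 6 genes had a positive value, with a median of 0.60 and a mean level that was higher on each DHT array than on any vehicle array. They included Aqp7, the glycerol channel of fat cells (0.93, adjusted p = 0.165), and Pde3b, which restrains lipolysis under insulin (0.74, adjusted p = 0.0772). Of 12 genes of fatty acid uptake and triglyceride synthesis, Gpam, which starts glycerolipid synthesis, rose by 1.01 (adjusted p = 0.0454) and Fabp5, a fatty acid carrier also common in epithelium, fell by 1.12 (adjusted p = 0.0329), with a median of 0.26. Of 11 genes for adipokines, their receptors and the insulin response, Agt (angiotensinogen) rose by 1.44 (adjusted p = 0.0305), with a median of 0.35. Retn, which encodes resistin, a product of fat cells in rodents, had 1.06 and did not pass (adjusted p = 0.0668). Of 8 lipogenesis genes, Scd2 (a fatty acid desaturase) rose by 2.83, Thrsp by 1.90 and Elovl6, which lengthens fatty acids, by 1.56, with a median of 1.26. Lipogenesis genes are also known androgen targets in prostate epithelium. With 1 array left out in turn, an alternative chosen after the data were seen, 0 to 1 regulators, 0 to 3 uptake genes, 0 to 3 adipokine genes and 1 to 5 lipogenesis genes rose. Gene by gene, Cebpd and Scd2 passed in 6 of these 6 fits, Elovl6 in 5 and Thrsp in 2. The calls of Klf15, Gpam, Agt and Fabp5 were each kept in 1 of the 6, that without vehicle array 3, so the fall of Fabp5 was lost in the other 5.

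**Figure D3:**
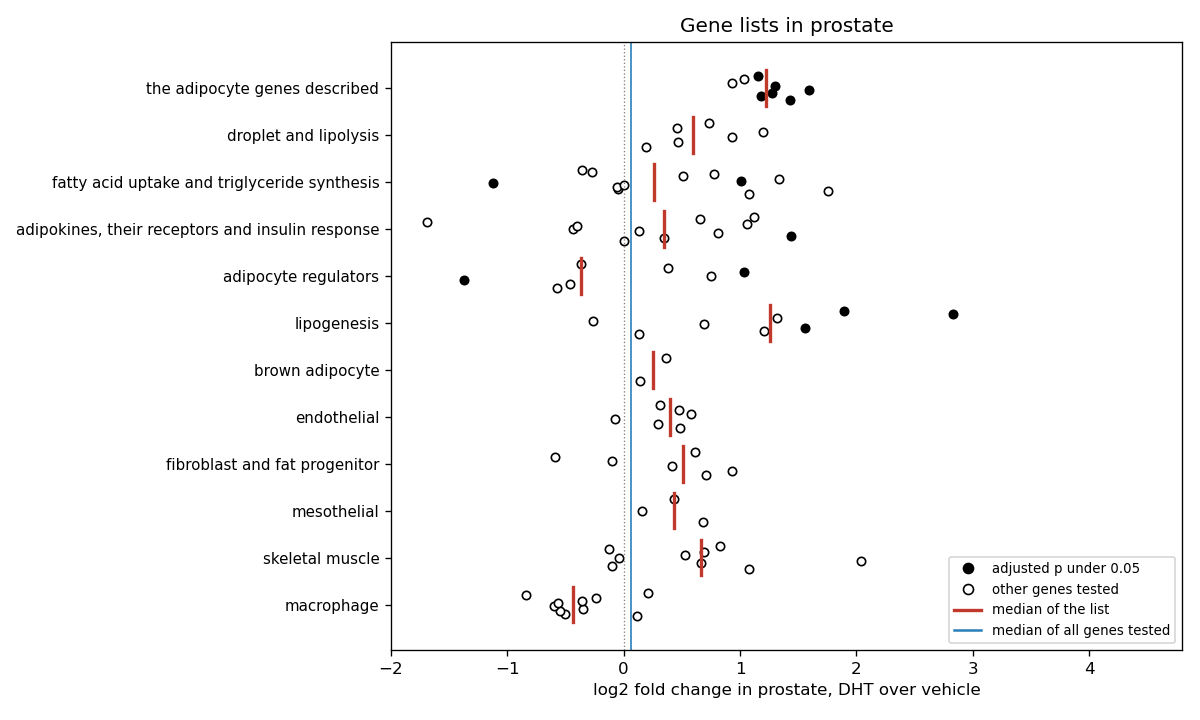
Log2 fold change of DHT over vehicle in prostate for each gene of 12 lists, with filled points for genes past an adjusted p of 0.05, red bars for the median of a list and a blue line for the median of all genes tested (0.06). The adipocyte genes described lie between 0.93 and 1.60, while the adipocyte regulators fall on both sides of 0.

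Markers of other cells that come with fat or connective tissue were not called in prostate with all 6 arrays, and with 1 array left out 0 to 1 fibroblast and 0 to 1 muscle genes rose. For the unadjusted counts below, 27.6% of all genes tested in prostate had an unadjusted p under 0.05 in limma. None of 6 endothelial genes passed in limma and none had an unadjusted p under 0.05, 5 were positive and the median was 0.39. The endothelial mean level was -0.42 to 0.08 on DHT arrays and -1.11 to -0.27 on vehicle arrays, so the groups overlapped. Of 6 genes of fibroblasts and fat progenitors none passed in limma (1 with an unadjusted p under 0.05, median 0.51). The mean level over the 7 such genes on the array, which include a gene that was not tested, was 0.84 to 1.65 on DHT arrays and 1.05 to 1.75 on vehicle arrays. Of 3 mesothelial genes, which would mark the lining over abdominal fat, none passed (0 with an unadjusted p under 0.05, median 0.44), and their mean level was 0.44 to 1.37 on DHT arrays and -0.43 to 0.88 on vehicle arrays. Of 9 skeletal muscle genes none passed in limma (3 with an unadjusted p under 0.05, median 0.66). The mean level over the 10 on the array, again with a gene that was not tested, was -2.21 to -1.82 on DHT arrays and -2.81 to -1.94 on vehicle arrays. Of 10 macrophage genes none passed (2 with an unadjusted p under 0.05), with a median of -0.43 and mean levels of 3.17 to 3.41 on DHT arrays and 3.32 to 3.86 on vehicle arrays. Brown fat genes were tested for 2 members only, neither passed (0 with an unadjusted p under 0.05), and the median was 0.25. More fat in a sample and more of these RNAs per fat cell cannot be told apart in whole tissue, and whether the fat attached to the prostate at dissection differed between the groups was not tested.

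**Figure D4:**
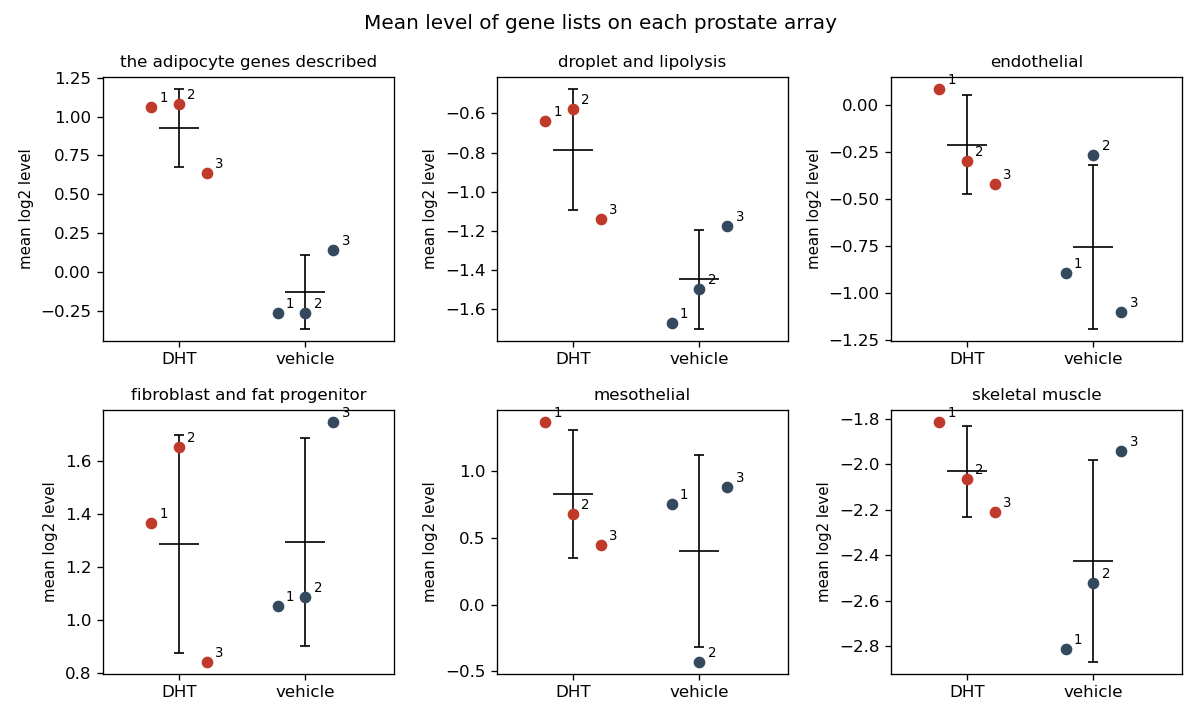
Mean log2 level of the 9 adipocyte genes and of 5 other lists on each prostate array (DHT in red, left; vehicle in dark blue, right; numbers are the replicates; bars are the mean and SD). Each mean covers every gene of a list that has a feature, also genes that were not tested. The adipocyte genes separate the groups (0.64 to 1.08 on DHT arrays and -0.27 to 0.14 on vehicle arrays), the droplet and lipolysis genes do so narrowly (-1.14 to -0.58 on DHT arrays and -1.67 to -1.18 on vehicle arrays), and the other 4 lists overlap.

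Markers of the prostate and of other epithelia moved unevenly. Of 7 prostate epithelium genes, Pbsn, the androgen-dependent secretory product probasin, rose by 5.85 (adjusted p = 0.00325), Krt8 fell by 0.99 (adjusted p = 0.0383), and the median was 0.48. Pbsn passed with each of the 6 arrays left out, whereas Krt8 passed in 0 of these 6 fits. Of 3 keratinocyte genes Krt14, a basal cell keratin, fell by 1.18 (adjusted p = 0.0301), with a median of -0.16, and passed in 2 of the 6 fits. Of 3 sebocyte genes the melanocortin receptor gene Mc5r rose by 3.20 (adjusted p = 0.00741), with a median of -0.33. It passed in the 3 fits without a vehicle array and was too dim to be tested in those without a DHT array. Neuron genes (3 tested, median 0.92, 2 with an unadjusted p under 0.05) and somatic cell genes of the ovary (5 tested, median 0.20, none with an unadjusted p under 0.05) had no call in limma.

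Promoters of the adipocyte genes were read for short motifs, in windows of 300 bases that run from 250 before to 50 after a start site (RefSeq, build GRCr8). Windows were found for Adipoq, Cd36, Cfd, Cidec, Lep, Plin1 and, with a pair of start sites, Pparg. Fabp4, Lpl and Lipe had none. These 8 windows include those of Lep, with no measured level in prostate, and of Plin1, which was not analysed. On either strand, AGGTCA, the hexamer that PPAR and RXR each bind, was in 0 of these 8 windows and in 16.2% of all 33469 windows, and its direct repeat with 1 base between, the element of the PPAR and RXR dimer, was in 0 of the 8 and 0.0538% of all. AGAACA, the hexamer of androgen and glucocorticoid receptors, was in 0 of the 8 and 20.7% of all. TTGCNNAA, a C/EBP motif, was in 4 of the 8 and 10.6% of all. Of the 6 windows of genes that rose in prostate, 2 hold it. It starts 209 bases before the start site in Cidec, 174 before the downstream start in Pparg, 77 before it in Plin1 and 69 before it in Lep, where it reads TTGCGCAA on both strands. The windows of 5 genes that rose in prostate follow, with C/EBP motifs in capitals, to show the base content of the region searched. They lie at chr4:150154522-150154821 (Pparg, plus strand, the downstream start), chr4:148137066-148137365 (Cidec, minus strand), chr4:18246332-18246631 (Cd36, plus strand), chr11:91240120-91240419 (Adipoq, minus strand) and chr7:10465447-10465746 (Cfd, minus strand), each written 5′ to 3′ along the gene. A match is a description of the letters and no match says only that they are not in this window.
Pparg: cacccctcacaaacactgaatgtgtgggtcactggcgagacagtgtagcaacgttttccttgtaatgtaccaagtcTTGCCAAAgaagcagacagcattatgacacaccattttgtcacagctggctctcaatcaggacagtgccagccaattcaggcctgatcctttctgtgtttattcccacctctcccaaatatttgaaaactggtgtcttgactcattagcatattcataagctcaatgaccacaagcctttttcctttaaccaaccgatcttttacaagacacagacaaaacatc
Cidec: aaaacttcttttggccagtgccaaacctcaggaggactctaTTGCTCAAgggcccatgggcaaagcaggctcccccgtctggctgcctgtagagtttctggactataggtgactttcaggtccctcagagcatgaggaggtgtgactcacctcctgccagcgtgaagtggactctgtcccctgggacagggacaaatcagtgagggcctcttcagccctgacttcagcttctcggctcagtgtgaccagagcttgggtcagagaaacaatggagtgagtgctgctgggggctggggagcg
Cd36: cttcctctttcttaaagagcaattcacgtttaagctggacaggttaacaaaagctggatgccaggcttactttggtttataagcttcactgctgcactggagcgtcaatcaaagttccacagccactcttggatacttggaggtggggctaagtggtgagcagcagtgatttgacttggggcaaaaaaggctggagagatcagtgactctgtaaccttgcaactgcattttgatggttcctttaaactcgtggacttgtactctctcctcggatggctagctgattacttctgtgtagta
Adipoq: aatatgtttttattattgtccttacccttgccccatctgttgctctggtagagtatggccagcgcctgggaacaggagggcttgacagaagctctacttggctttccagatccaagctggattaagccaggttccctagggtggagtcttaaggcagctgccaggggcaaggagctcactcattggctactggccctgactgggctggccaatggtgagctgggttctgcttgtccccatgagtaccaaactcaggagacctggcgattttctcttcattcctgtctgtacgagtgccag
Cfd: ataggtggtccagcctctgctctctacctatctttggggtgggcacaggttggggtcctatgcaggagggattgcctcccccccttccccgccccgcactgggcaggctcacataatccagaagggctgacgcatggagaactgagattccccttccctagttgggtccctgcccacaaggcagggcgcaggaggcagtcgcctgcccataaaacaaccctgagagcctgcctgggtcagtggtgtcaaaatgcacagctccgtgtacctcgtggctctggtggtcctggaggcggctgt

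In ovary, none of the 9 adipocyte genes passed in limma and none had an unadjusted p under 0.05. Over the 29400 genes tested there 0% changed (3076 with an unadjusted p under 0.05). The median log2 fold change of the 9 genes was -0.03, against -0.23 over all genes, and DHT and vehicle arrays overlapped for each of them. Cidec, for example, had 2.73, 1.89 and 2.44 on DHT ovary arrays, against 1.64, 3.09 and 1.87 on vehicle arrays, and the difference of 0.15 ± 0.46 had a 95% interval of -0.96 to 1.27. Adipoq had 3.94, 4.17 and 3.86 on DHT arrays, against 3.20, 4.61 and 3.85 on vehicle arrays (0.10 ± 0.39, 95% interval -0.85 to 1.05). The vehicle arrays were the more scattered, and vehicle array 2, the uncompressed one, was the highest of them for both genes. Pparg had 1.38, 0.42 and 1.26 on DHT arrays, against 0.68, 1.60 and 1.15 on vehicle arrays (-0.12 ± 0.38), and Cd36 had 2.02, 1.63 and 1.69 on DHT arrays, against 1.29, 2.11 and 1.26 on vehicle arrays (0.22 ± 0.32). Fabp4 had 3.71, 3.24 and 3.32 on DHT arrays, against 2.68, 4.07 and 4.21 on vehicle arrays (-0.23 ± 0.46). Each of these genes had vehicle arrays on both sides of the DHT arrays or among them. Lpl had 2.09, 0.93 and 1.88 on DHT arrays, against 1.36, 2.28 and 1.63 on vehicle arrays (-0.13 ± 0.42), and its low array, DHT array 2, was also the low one for Pparg. Cfd had 7.01, 6.76 and 6.34 on DHT arrays, against 5.59, 6.64 and 7.21 on vehicle arrays, and vehicle array 1 was the lowest (0.22 ± 0.46). Lipe had the smallest SE (0.76, 0.38 and 0.44 on DHT arrays, against 0.66, 0.35 and 0.65 on vehicle arrays) with a difference of -0.03 ± 0.24. The other Lipe feature, which was not tested, differed by -0.96, and its groups overlapped. Leptin had the widest difference, -2.22 ± 1.16 (adjusted p = 0.505). Its levels were -6.43, -7.32 and -7.05 on DHT arrays, against -3.49, -7.48 and -3.16 on vehicle arrays, and the high values were those of the 2 compressed vehicle arrays. Without both of these arrays the median of the 9 genes was -0.60, with 1 vehicle array left, and without vehicle array 2, so that the compressed arrays stood alone, Lep passed (-3.61, adjusted p = 0.00187).

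In skin, none of the 8 genes tested passed in limma, 2 had an unadjusted p under 0.05, and 0% of the 24122 genes tested there changed (1192 with an unadjusted p under 0.05). The median of the 8 genes was -0.46, against 0.05 over all genes, with 6 of the 8 values below 0. Cidec had -1.64, -1.64 and -1.05 on DHT skin arrays, against -0.54, -0.32 and -0.90 on vehicle arrays. Adipoq had 2.53, 2.98 and 2.37 on DHT arrays, against 3.37, 3.48 and 3.11 on vehicle arrays. For both genes every DHT array lay below every vehicle array, which was so for 6.19% of all genes tested, and their differences of -0.86 ± 0.30 and -0.70 ± 0.28 had an adjusted p = 0.752 each. The other 6 genes overlapped between the groups. Pparg had -1.67, -1.05 and -1.26 on DHT arrays, against -0.24, -0.67 and -1.13 on vehicle arrays (-0.65 ± 0.33). Fabp4 had 3.86, 4.40 and 4.99 on DHT arrays, against 5.36, 4.58 and 4.85 on vehicle arrays (-0.52 ± 0.38), and Lipe had -1.89, -1.60 and -1.11 on DHT arrays, against -0.57, -1.35 and -1.48 on vehicle arrays (-0.40 ± 0.36). For these genes vehicle array 1 was the highest array of all 6. The other Lipe feature, which was not tested, differed by 0.14, and its groups overlapped. Lpl had 1.87, 2.03 and 1.74 on DHT arrays, against 1.83, 2.36 and 1.77 on vehicle arrays (-0.11 ± 0.28). Cd36 had 2.09, 1.64 and 2.47 on DHT arrays, against 1.76, 1.63 and 1.54 on vehicle arrays (0.42 ± 0.30), and Cfd had 8.30, 8.22 and 7.97 on DHT arrays, against 7.97, 7.95 and 7.77 on vehicle arrays (0.26 ± 0.24). Of the features tested, those of Cd36 and Cfd were the ones with a difference above 0. Lep was not well above background on any skin array. Skeletal muscle genes marked the skin samples too, with a mean level of 8.35 to 10.8 on DHT arrays and -1.93 to 9.33 on vehicle arrays, where vehicle array 1 was the low one. Without that array the median of the 8 genes was -0.24. The part of muscle or of underlying tissue in the skin values was not tested.

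In forebrain Cd36, Cfd, Lipe, Lpl and Pparg were well above background on 5 of 5 arrays, Adipoq on 3, Cidec and Fabp4 on 2 and Lep on 1. Lep, Fabp4 and Cidec were too dim to test, and none of the other 6 passed in limma (2 with an unadjusted p under 0.05), where 0% of the 26361 genes tested changed (7234 with an unadjusted p under 0.05). The median of the 6 genes was -0.34, against -0.02 over all genes. Adipoq had -5.34, -7.16 and -7.44 on DHT forebrain arrays, against -4.47 and -2.22 on the 2 vehicle arrays. It was well above background on 1 of 3 DHT arrays and on both vehicle arrays, which differed by more than 2 units, and the difference was -3.30 ± 0.91 (adjusted p = 0.103). Cfd had -0.17, -0.41 and -0.31 on DHT arrays, against 0.26 and 0.61 on vehicle arrays (-0.73 ± 0.16, adjusted p = 0.0825). Lpl, which neurons and glia also express, had -1.61, -1.69 and -2.50 on DHT arrays, against -1.61 and -1.33 on vehicle arrays (-0.47 ± 0.31), so that its groups nearly touched. Lipe had -2.70, -2.74 and -2.54 on DHT arrays, against -1.80 and -3.10 on vehicle arrays (-0.21 ± 0.39). Cd36 had -5.18, -4.52 and -5.27 on DHT arrays, against -4.95 and -4.70 on vehicle arrays (-0.17 ± 0.27), and Pparg had -4.52, -4.95 and -5.44 on DHT arrays, against -5.23 and -5.08 on vehicle arrays (0.18 ± 0.29). These genes were well above background on each forebrain array but overlapped, Lpl apart. Fabp4 and Cidec, well above background on 1 DHT array and 1 vehicle array each, had levels of -7.19 to -5.03 and -6.59 to -4.59 on DHT arrays, against -5.97 to -5.52 and -6.32 to -5.72 on vehicle arrays. By their tested features, Adipoq, Cfd and Lpl were the 3 of 6 genes with every DHT array below every vehicle array, against 24.2% of all genes tested. The Lpl features disagreed: the other one, which was not tested, averaged -2.27 on DHT arrays and -2.29 on vehicle arrays, and its groups overlapped. The mean level of 10 skeletal muscle genes was -2.44 to -1.45 on DHT arrays and 0.28 to 0.29 on vehicle arrays, with 10 of 10 at an unadjusted p under 0.05. Of these, 9 were lower on DHT arrays, and Pvalb, which interneurons also express, was higher by 0.63. Neuron genes had a mean level of 2.96 to 3.09 on DHT arrays and 2.57 to 2.60 on vehicle arrays, with 8 of 8 differences above 0 and 4 at an unadjusted p under 0.05. Endothelial and macrophage lists also had lower means on DHT arrays (-0.02 to 0.25 and 0.62 to 0.79) than on vehicle arrays (0.36 to 0.91 and 1.17 to 1.45). What other tissue came with the forebrain samples, and its part in the Adipoq and Cfd values, was not tested. Over all 16 lists, no gene passed in ovary (110 genes tested, 8 with an unadjusted p under 0.05), skin (102 and 10) or forebrain (102 and 48).

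The difference between tissues in the response was tested itself, in the fit over all 23 arrays with 33846 genes. Ovary came from intact females and prostate from castrated males, so tissue, sex and castration cannot be told apart in the comparison with ovary. The DHT effect in prostate minus that in ovary was above 0 for all 8 genes measured in prostate, and none passed (1.1% of all genes passed above 0), with an adjusted p of 0.172 or more and 7 genes with an unadjusted p under 0.05. The values ran from 0.95 ± 0.36 for Cd36 to 1.53 ± 0.65 for Fabp4. Without ovary vehicle arrays 1 and 3, an alternative chosen after the data were seen that leaves 1 vehicle ovary array, assumed to vary like the others, 8 of 8 values were above 0 and none passed (lowest adjusted p = 0.151). Against skin, all 8 values were above 0 and none passed (1.15% of all genes passed above 0, 7 of the 8 with an unadjusted p under 0.05). Cidec (2.45 ± 0.62, adjusted p = 0.0546) and Pparg (1.80 ± 0.46, adjusted p = 0.0549) lay just outside the threshold. Against forebrain all 8 values were above 0, and Adipoq (4.74 ± 0.75, adjusted p = 0.00430) and Cfd (2.03 ± 0.45, adjusted p = 0.0395) passed, against 0.68% of all genes above 0. The Adipoq value joins the prostate rise to the forebrain levels near background given above. Without replicate 3 of every group neither gene passed in limma (adjusted p = 0.182 each). Leaving out replicate 1 or replicate 2 left 1 vehicle forebrain array, with values of 6.33 and 3.25 for Adipoq and 2.04 and 1.88 for Cfd. Only the values are given for these fits, since 1 array has no spread, and they do not say that either gene passed. These 3 comparisons share the prostate arrays. The share of all genes above 0, or with an unadjusted p under 0.05, was not computed for them, so those counts have no background to be read against.

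Across tissues, vehicle levels show how these transcripts stood without DHT relative to each array's 75th percentile, and not their amount in a sample. The log2 of that percentile was 8.57, 6.24 and 7.18 on vehicle skin arrays 1 to 3. It was 9.01 or more on the vehicle arrays of the other tissues. The part of this lower reference in the differences between skin and the other tissues was not tested. Averaged over the 8 genes measured in prostate, the mean level was 2.68 ± 0.26 in DHT ovary, 1.96 ± 0.30 in DHT prostate, 1.85 ± 0.17 in DHT skin and -4.20 ± 0.49 in DHT forebrain (SD, n = 3 each). The same mean was 2.65 ± 0.48 in vehicle ovary, 0.72 ± 0.15 in vehicle prostate, 2.17 ± 0.21 in vehicle skin (SD, n = 3 each) and -3.57 ± 0.16 in vehicle forebrain (n = 2). Prostate thus lay within the spread of skin with DHT, and between skin and forebrain with vehicle.

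Gene by gene, prostate was below ovary for 8 of the 8 genes measured there with vehicle (24.6% of all genes were), from -0.79 ± 0.30 for Cfd to -3.21 ± 0.32 for Pparg. Without the 2 compressed ovary arrays 8 of 8 passed, from -0.94 ± 0.30 for Cfd to -3.66 ± 0.44 for Pparg, and without replicate 3 of every group, which takes out one of them and prostate vehicle array 3, 4 of the 8 did (Cidec, Lipe, Lpl and Pparg). Prostate was below skin for 6 of 8 (24.7% of all genes were), from -1.02 ± 0.26 for Cd36 to -2.88 ± 0.46 for Fabp4. The tested Lpl feature was among them (-2.34 ± 0.33), but the other Lpl feature averaged -0.82 in vehicle prostate and -0.47 in vehicle skin. With replicate 1, 2 or 3 left out of every group, Lipe ran from -1.47 to -0.76 and Cd36 from -1.09 to -0.96. Adipoq (-0.98 ± 0.50, adjusted p = 0.122) and Cidec (0.29 ± 0.44, adjusted p = 0.641) did not differ beyond their spread. Prostate was above forebrain for 7 of 8 (24.8% of all genes were), from 1.12 ± 0.37 for Lpl to 7.78 ± 0.52 for Fabp4, and Lipe did not differ beyond its spread (0.25 ± 0.36, adjusted p = 0.606). The tested Lipe feature was well above background on all 5 of these arrays, so its forebrain level was measured and not a floor. Fabp4 was well above background on 1 of the 2 vehicle forebrain arrays. Without replicate 3 of every group, the Lpl difference from forebrain was 1.11 and did not pass in limma (adjusted p = 0.0576).

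The order of ovary and skin depended on the gene. Ovary was above skin for Cidec (2.79 ± 0.44), Pparg (1.82 ± 0.32) and Lipe (1.69 ± 0.32), where 27.8% of all genes were above. It was below skin for Cfd (-1.42 ± 0.30) and Fabp4 (-1.28 ± 0.46), where 15.8% of all genes were below. Adipoq (0.57 ± 0.50), Cd36 (-0.09 ± 0.26) and Lpl (-0.23 ± 0.33) did not differ beyond their spread. Cidec was thus highest in ovary, with no difference beyond the spread between skin and prostate, while the relative level of Cfd was highest in skin. Without the 2 compressed ovary arrays 4 of these 5 calls remained, and Fabp4 did not pass (-0.84 ± 0.60, adjusted p = 0.284). The Lpl features disagreed here: the other feature averaged 1.37 in vehicle ovary and -0.47 in vehicle skin, whereas the tested one averaged 1.76 and 1.99. The Lipe features differed in size: the other feature averaged -1.87 in vehicle ovary and -2.31 in vehicle skin, whereas the tested one averaged 0.55 and -1.13. Ovary and skin were each above forebrain for 8 of 8 genes (33.9% and 26.8% of all genes were above), ovary also without its compressed arrays. The largest of these differences was that of Fabp4 between skin and forebrain (10.7 ± 0.52), where Fabp4 was well above background on 1 of 2 vehicle forebrain arrays.

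The members followed each other closely across tissues and less so within them. The level of a gene over the 23 arrays correlated with the mean of the other members at r = 0.72 for Lipe, 0.90 to 0.97 for the other 7 genes besides Lep, and 0.28 for Lep. After each tissue's mean was taken off, over 17 prostate, skin and forebrain arrays, r was 0.81 for Fabp4, 0.80 for Lpl, 0.43 for Cd36 and 0.07 for Lep. Of 8261 other genes with a symbol, those most like the mean of the members over the 23 arrays were Mst1 (r = 0.99), Aqp7 (0.99), Ifitm2 (0.98), Upk1b (0.97) and Retn (0.97). Aqp7 and Retn are fat cell genes, and Upk1b encodes a uroplakin that mesothelium also makes. Within tissues the most alike were Cesl1 (r = 0.91), Gdi2 (0.86), Lamp3 (0.86), Cep63 (0.85) and Fut4 (0.85). The points share their arrays and slides, and r over tissues mostly reflects the gap between forebrain and the others. Taking off the mean of a tissue leaves the difference between its DHT and vehicle arrays in place, so r within tissues also holds that difference.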

How the data were processed

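Gene expression was measured on one-colour Agilent rat arrays, 1 per sample. The deposited files give linear intensity values per spot, as Agilent's Feature Extraction software exported it (version 10.5.1.1 per the file headers, 10.1 per the submitters' processing notes, which also name limma). The processed signal was background-subtracted by the scanner software, per the file headers, without scaling between arrays. From it were computed log2 levels minus each array's 75th percentile, without control and outlier spots. Features well above background on at least 3 arrays entered a fit, with the brightest feature kept per gene. DHT and vehicle were compared per tissue, and tissues over all 23 arrays with slide as a random block (correlation 0.08 over 2000 genes), with limma 3.58.1 in R 4.3.3 (lmFit, eBayes, Benjamini-Hochberg over all genes, threshold 0.05), a procedure tested on simulated data. A column of mean signal was not used here, so the normexp alternative (offset 50) took the median signal and the median background. Gene names came from RefSeq accessions. The other alternatives were quantile normalization, no filter on dim features, array weights, the mean over features, a replicate block and leaving out arrays. Array numbers did not pair the groups. The members, the 16 other gene lists and the motifs were chosen with earlier results of these data known, and all members are named; of the other lists, up to 3 genes called in each direction are named with their values, and a few uncalled genes were named after their values were seen. Array number limits the precision.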

Additional observations from a re-analysis of the deposited data

Results flagged for a closer look

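Forebrain vehicle array 3, which was left out of every test unless stated, held signal for adipocyte genes: 6 of 8 measured members were higher on it than on both other forebrain vehicle arrays. So were 64.7% of all 40393 features measured on these arrays, and lists of other tissues were higher there too, such as keratinocyte genes (a mean of -0.91, against -4.52 and -3.80). Adipoq was 0.79 there, against -4.47 and -2.22 on the other arrays, while its interquartile range of 1.92 log2 units was the narrowest of all 24 arrays. The DHT effect in prostate differed from that in forebrain for Adipoq, by 4.74 log2 units, and for Cfd, by 2.03, both past the threshold in the fit over all tissues. Neither passed without replicate 3 of every group. The cause of either difference was not tested. Groups of 3 arrays are too small to test a single array as an outlier.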

How the results depend on the processing

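In prostate all 8 log2 fold changes stayed positive under each alternative run, and the calls moved, for causes that were not tested. Of the 8 genes, 1 passed with no filter on dim features, 2 in the fit over all tissues with slide as a random block, 4 with normexp, 5 with quantile normalization, 7 with array weights, and 1 to 7 with 1 array left out. Over all genes in prostate 2288 passed, against 571 with normexp, 619 with no filter, 5168 with array weights, 1188 with the slide block, and 574 to 2746 with 1 array left out. With the replicate block, 0 members and 0 of all genes passed in prostate, which leaves few degrees of freedom. Same-numbered arrays did not deviate together (correlations of -0.33, -0.17 and -0.07 in prostate), so this block pairs nothing, and elsewhere it changed no call of a member. In ovary, 1 member (Lep) passed with array weights, where the median was 0.48 and 7746 of all genes passed, and leaving out 1 array gave 0 to 1 members and 0 to 7578 genes. Quantile normalization gave 15 genes there and the slide block 481. Without both compressed arrays the ovary median was -0.60, with Adipoq at -0.62, Cd36 at -0.33, Cidec at -0.73 and Lipe at 0.17, each of the other sign. With array weights Fabp4 (0.53), Lpl (0.40) and Pparg (0.41) also changed sign in ovary, and Adipoq did with quantile normalization (-0.0088). With 1 ovary array left out, Adipoq ran from -0.24 to 0.46, Cfd from -0.22 to 0.59, Cidec from -0.12 to 0.60, Fabp4 from -0.72 to 0.047, Lipe from -0.14 to 0.049, Lpl from -0.35 to 0.23 and Pparg from -0.36 to 0.18. In skin no alternative called a member, 1 gene of all passed with the slide block, the median was -0.24 with normexp, -0.25 with array weights, -0.32 with the mean over features and -0.59 to -0.23 with 1 array left out, where Lpl ran from -0.21 to 0.080. In forebrain 1 member (Adipoq) and 29 genes passed with the slide block, 781 genes with normexp and 0 to 49 with 1 array left out. The median was -1.01 with vehicle array 3 included, Pparg was -0.62 with that array and -0.37 with normexp, Cd36 was 0.034 with array weights, and with 1 array left out Lipe ran from -0.86 to 0.44 and Pparg from -0.047 to 0.41. For the difference of prostate from skin 2 members passed with quantile normalization. For that from forebrain 1 passed with normexp, 1 without the slide block, and 0 to 1 with a replicate number left out of every group. Vehicle prostate against ovary gave 4 to 7 calls in that case. Without both compressed ovary arrays, the difference of the DHT effect in prostate from that in ovary gave 0 calls, and vehicle ovary against skin gave 4, against prostate 8 and against forebrain 8. Signal near background limits Lep and, in forebrain, Adipoq, Cidec and Fabp4.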
